A study of Mus musculus with 4 samples.

Results

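The Id and E protein genes of mouse thymocytes were examined here: Id1, Id2, Id3 and Id4, and the E protein genes Tcf3 (E2A), Tcf4 (E2-2) and Tcf12 (HEB). Every probe set whose only gene symbol in the annotation of the array platform was one of these 7 names was taken, which gave 16 of the 45037 probe sets on the array, 8 for the Id genes and 8 for the E proteins. The samples were CD4+CD8+ double-positive thymocytes sorted by flow cytometry from C57BL/6 mice, with 1 Affymetrix array per sample. Of the 4 arrays, 2 carried the label WT and 2 the label hCD2-iCre x Gfi1fl/fl, meaning a floxed Gfi1 gene combined with the iCre recombinase under human CD2 control, which is active in lymphoid cells. The labels do not describe the WT mice as carrying the recombinase, and they give no ages and no treatment. Separate animals are not stated for the replicates, so each p-value reflects the spread among these particular samples, which may be technical. Precision is limited by having 2 arrays per label.

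E proteins are basic helix-loop-helix transcription factors that bind E-box DNA as dimers. In thymocytes the products of Tcf3 and Tcf12 pair with each other, and they hold cells at developmental checkpoints and sustain antigen receptor gene rearrangement. Id proteins have the helix-loop-helix but no DNA-binding region, so they pair with E proteins and keep them off DNA. Id3 is known as the Id gene that T cell receptor signals induce in double-positive cells, Id2 as a gene of innate lymphoid, NK and effector T cells, and Id2 has been described as a gene that Gfi1 represses. The Tcf3 and Tcf4 of this report are E proteins and not the TCF/LEF factors of Wnt signalling that share those names.

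Values are log2 probe set signals after RMA, a procedure that summarises the probes of a probe set and scales arrays to one another. Array medians were 3.53 to 3.55 and lower quartiles 2.97 to 3.02, and signals near these are dim. The double-positive label was matched by high signals of Cd8a (12.48 to 12.78), Rag1 (12.54 to 12.66) and Cd4 (8.24 to 8.66) on all 4 arrays. Of 10 measured markers of the stage, 9 did not pass the test between the labels and Dntt fell, as given below. The mean was higher on the arrays labelled hCD2-iCre x Gfi1fl/fl for 1 of the 10 markers. The median difference from WT was -0.19 on the log2 scale, against -0.02 over all genes. Gfi1 itself, which had 1 probe set, gave 10.17 and 10.08 on the arrays labelled WT and 11.47 and 11.32 on those labelled hCD2-iCre x Gfi1fl/fl, a difference of 1.27 ± 0.14 (SE; limma, adjusted p = 0.00781). It was therefore higher, not lower, under the label of deletion, and where its probes lie relative to the floxed part is not given in the sources used here. Directions below are accordingly those between arrays with these labels. Without WT replicate 2 the adjusted p of Gfi1 was 0.0501.

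Of the 7 genes, each taken by its brightest probe set, Id2 rose on the arrays labelled hCD2-iCre x Gfi1fl/fl and the other 6 genes did not pass the test (limma with Benjamini-Hochberg adjustment over 17097 genes, threshold 0.05). Over all genes 1.11% were called, and 0.942% were called higher. Among the 16 probe sets, tested beside all 45037, 1 was called, again for Id2, against 0.766% of all probe sets in either direction and 0.664% called higher. The median difference of the 7 genes was 0.16 on the log2 scale, against -0.02 over all genes. The arrays of the 2 labels did not overlap for 5 of the 7 genes, against 34.5% of all genes, and for 10 of the 16 probe sets, against 34.7% of all probe sets. The plot of signals by array shows these values for each probe set.

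**Figure D1:**
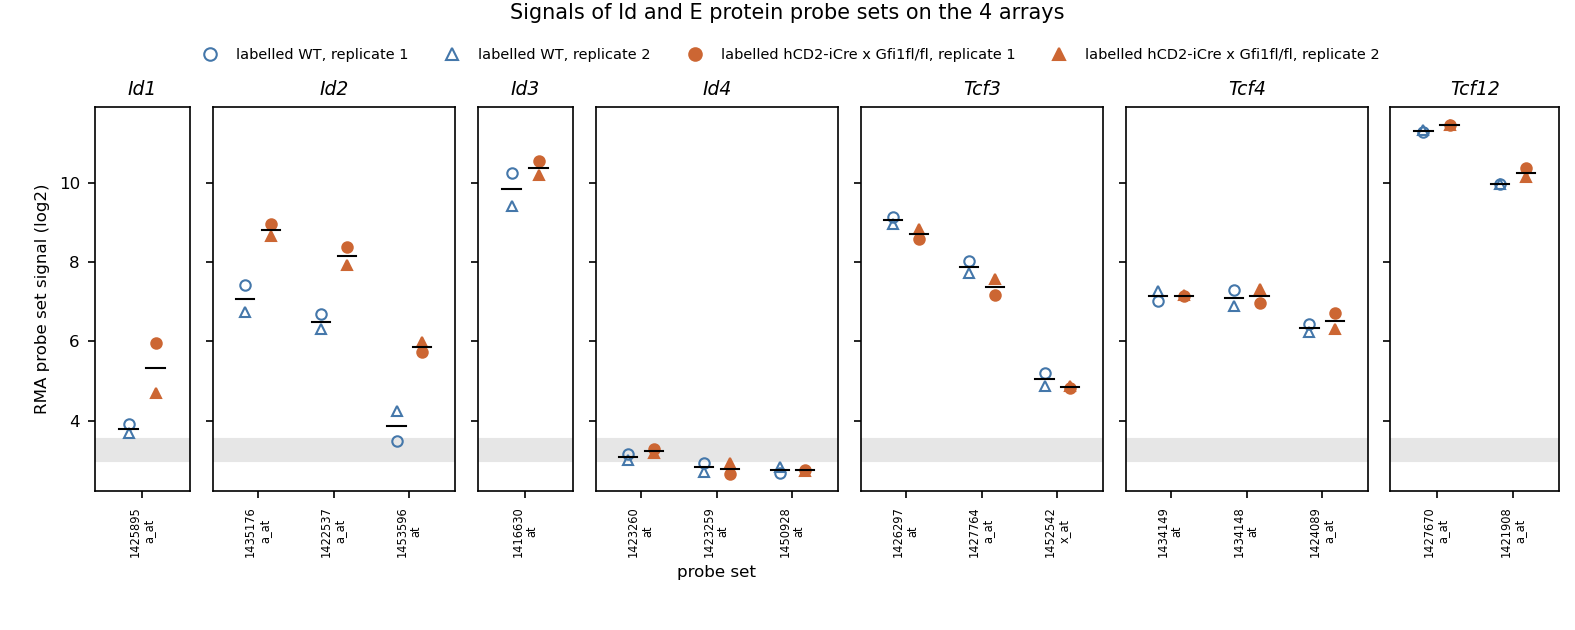
Log2 RMA signal (vertical axis) of each of the 16 probe sets of the Id and E protein genes (horizontal axis, probe set numbers) on the 4 arrays, with open symbols for the WT label, filled symbols for the hCD2-iCre x Gfi1fl/fl label, circles for replicate 1, triangles for replicate 2, black bars for group means and a grey band from the lowest lower quartile to the highest median of the arrays. The groups are apart for Id1 and for all 3 Id2 probe sets, the Id4 probe sets lie in or below the band, and the Tcf4 groups overlap.

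Id2, an inhibitor of E proteins, was read by 3 probe sets, and all had higher signals on both arrays labelled hCD2-iCre x Gfi1fl/fl than on either WT array. The brightest, 1435176_PM_a_at, gave 7.41 and 6.73 on the WT arrays and 8.97 and 8.66 on the others. This was a difference of 1.74 ± 0.28 (SE), or 3.35-fold in signal (95% confidence interval 1.08 to 2.41 on the log2 scale; limma, adjusted p = 0.0429 over genes). The second probe set, 1422537_PM_a_at, gave 6.68 and 6.31 against 8.39 and 7.94. Its difference was 1.67 ± 0.27 (SE), and it missed the threshold in the fit of all probe sets (limma, adjusted p = 0.0587), as did the brightest one there (adjusted p = 0.0627).

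The dimmest Id2 probe set, 1453596_PM_at, gave 3.49 and 4.25 on the WT arrays, close to the array medians, and 5.75 and 5.99 on the others. It had the largest difference of the 16, 2.00 ± 0.30 (SE), or 3.997-fold (limma, adjusted p = 0.0425 over all probe sets). The 3 probe sets ordered the replicates differently: WT replicate 1 was the higher WT array by 0.68 and 0.37 for the first and second, and the lower one by 0.76 for the dimmest. With the mean of its 3 probe sets in place of the brightest, Id2 differed by 1.80 (limma, adjusted p = 0.0133). Without WT replicate 2 the difference of the brightest probe set was 1.41 and its call was lost (adjusted p = 0.167), as it was without the intensity trend in the prior variance (0.106), within a range of 0.000793 to 0.167 over 13 alternatives, of which 11 kept the call. The call of the dimmest probe set was lost without WT replicate 1 (limma, adjusted p = 0.158), without hCD2-iCre x Gfi1fl/fl replicate 2 (0.0677) and without the trend (0.126). In RNA of sorted bulk cells, more cells with Id2 and more Id2 RNA per cell cannot be told apart.

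Since Id2 was the gene called, the letters before its start site are shown, beside those of Id3, the other Id gene with bright signals. Both are 250 bases upstream of the annotated start from RefSeq (assembly GRCm38.p6), 5′ to 3′ on the gene's strand: Id2 at chr12:25096093-25096342 on the minus strand and Id3 at chr4:136143572-136143821 on the plus strand. Capitals mark E-box letters, CANNTG, which E proteins bind, and AATC or its reverse complement GATT, the core of the sequence that Gfi1 binds.
Id2: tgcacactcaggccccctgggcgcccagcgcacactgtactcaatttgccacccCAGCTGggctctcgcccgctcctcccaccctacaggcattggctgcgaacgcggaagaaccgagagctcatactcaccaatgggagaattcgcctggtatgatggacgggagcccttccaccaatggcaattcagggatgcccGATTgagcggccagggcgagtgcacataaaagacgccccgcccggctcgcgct
Id3: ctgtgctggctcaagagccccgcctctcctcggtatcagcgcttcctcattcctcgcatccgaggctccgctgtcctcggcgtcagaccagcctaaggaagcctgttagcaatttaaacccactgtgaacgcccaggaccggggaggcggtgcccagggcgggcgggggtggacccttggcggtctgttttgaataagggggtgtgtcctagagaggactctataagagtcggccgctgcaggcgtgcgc
The Id2 window held 1 E-box, CAGCTG, starting 196 bases upstream of the start, and 1 GATT starting 53 bases upstream. The marked letters do not overlap each other. The Id3 window held neither. These letters are common: of 32851 windows of 300 bases (250 before and 50 after a start), 72.3% held CANNTG and 73.1% held AATC on either strand. A longer match, AAATCA on either strand, was in 14% of windows and in 0 of the 7 windows found for 5 of the 6 genes looked up. Tcf4 was not looked up, and no window was found for Id1. A match is a description of letters and not of binding, which was not measured.

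Among the other windows, that of Id4 held 1 GATT and no E-box, and that of Tcf3 held 1 E-box and 2 AATC or GATT matches. The 3 windows of Tcf12, 1 for each annotated start, held 1, 2 and 1 E-boxes, and the last of these also held 2 GATT matches. The windows found, which leave out Id1 and Tcf4, were rich in G and C. Their content was between 60.0% and 75.7% for all but 1 Tcf12 window (36.3%), against a median of 52.7% over all windows.

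Id1, an Id gene of progenitors and of cells that receive BMP signals, had 1 probe set, with signals of 3.92 and 3.68 on the WT arrays and 5.96 and 4.71 on the arrays labelled hCD2-iCre x Gfi1fl/fl. The WT values were just above the array medians, and both other values were higher. The difference was 1.53 ± 0.39 (SE), or 2.89-fold, with a 95% confidence interval of 0.60 to 2.47, and it did not pass the test (limma, adjusted p = 0.205; unadjusted p = 0.00604). Most of the spread came from the pair labelled hCD2-iCre x Gfi1fl/fl, which differed by 1.25, with replicate 1 the higher. Without replicate 2 of that label, the difference was 2.16 and the gene was called (adjusted p = 9.89e-05). Without its replicate 1 the difference was 0.91 (adjusted p = 0.0838, limma). Each such fit leaves 1 array in that group, whose spread is then assumed to equal that of the WT arrays.

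The same pair of arrays differed in proliferation genes. The mean signal of 26 measured cell cycle genes was 7.87 on hCD2-iCre x Gfi1fl/fl replicate 1 and 9.56 on its replicate 2, with all 26 higher on the latter, and 8.64 and 9.03 on the WT arrays. With this mean as a covariate, which leaves 1 residual degree of freedom per gene, Id1 differed by 1.44 and was called (limma, adjusted p = 0.00638), and Id2 differed by 1.71 (adjusted p = 0.00301). In that fit 497 genes were called in all, against 190 without the covariate. The part of cell cycle differences in the Id1 signals was not tested further.

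Id3, the T cell receptor-induced Id gene, was bright on all 4 arrays. Its 1 probe set gave 10.25 and 9.43 on the WT arrays and 10.56 and 10.21 on the others. The groups overlapped, since WT replicate 1 lay above hCD2-iCre x Gfi1fl/fl replicate 2. The difference was 0.54 ± 0.28 (SE) with a 95% confidence interval of -0.12 to 1.20 (limma, adjusted p = 0.753). The interval includes no difference and also a difference of the size of 1 log2 unit. Without WT replicate 1 the value was 0.96 and without WT replicate 2 it was 0.13, so that it rested mainly on which WT array was used.

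Id4, best known from the nervous system and other tissues outside the thymus, had 3 probe sets, all dim. The brightest, 1423260_PM_at, gave 3.17 and 3.01 on the WT arrays and 3.29 and 3.19 on the others. The other two lay between 2.66 and 2.94 on every array, below the lower quartiles. Differences were 0.15, -0.04 and -0.01, with adjusted p of at least 0.898 (limma). At such signals a lower level of Id4 was not detectable. All 3 were designed from the same source sequence, so they are not independent readings.

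Tcf3, which encodes the E2A proteins E12 and E47, had lower means on the arrays labelled hCD2-iCre x Gfi1fl/fl by all 3 of its probe sets, and none passed the test. The brightest, 1426297_PM_at, gave 9.15 and 8.97 on the WT arrays and 8.59 and 8.83 on the others. Its difference was -0.35 ± 0.19 (SE), with a 95% confidence interval of -0.81 to 0.11 (limma, adjusted p = 0.787). The second, 1427764_PM_a_at, gave 8.03 and 7.73 against 7.17 and 7.59, a difference of -0.50 ± 0.26 (SE; adjusted p = 0.767 over all probe sets). On both, hCD2-iCre x Gfi1fl/fl replicate 1 was the lowest array. The dimmest, 1452542_PM_x_at, whose suffix marks probes shared with other sequences, gave 5.20 and 4.88 against 4.82 and 4.87, a difference of -0.20. The groups did not overlap for any of them. The 3 probe sets read 1 gene and are not replicates, and 2 of them were designed from the same source sequence.

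Tcf12, which encodes HEB, the E protein partner of E2A in thymocytes, had 2 bright probe sets. The brighter, 1427670_PM_a_at, gave 11.28 and 11.33 on the WT arrays and 11.46 and 11.47 on the others, a difference of 0.16 ± 0.11 (SE; 95% confidence interval -0.11 to 0.43; limma, adjusted p = 0.878). The other, 1421908_PM_a_at, gave 9.98 and 9.97 against 10.36 and 10.15, a difference of 0.28 ± 0.16 (SE; adjusted p = 0.794 over all probe sets). The groups did not overlap for either probe set, and neither difference passed the test.

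Tcf4, which encodes E2-2, the E protein of plasmacytoid dendritic cells, gave intermediate signals between 6.25 and 7.31 over its 3 probe sets and all 4 arrays. The brightest, 1434149_PM_at, gave 7.02 and 7.28 on the WT arrays and 7.13 and 7.17 on the others, a difference of 0.0022 ± 0.23 (SE; 95% confidence interval -0.54 to 0.54; limma, adjusted p = 1). The other two differed by 0.04 and 0.17, and the groups overlapped for all 3. Of the 8 E protein probe sets, 0 were called by limma and 0 had an unadjusted p under 0.05, against 1 and 4 of the 8 Id probe sets. Of those 4 probe sets, 3 read Id2 and 1 reads Id1, so they are not separate genes. By gene, 2 of the 7 had an unadjusted p under 0.05 (limma), Id1 and Id2. Over all 45037 probe sets 7.64% had an unadjusted p under 0.05, and over all genes 8.29%. Whether the Id and E protein genes differed in their response from each other was not tested.

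**Figure D2:**
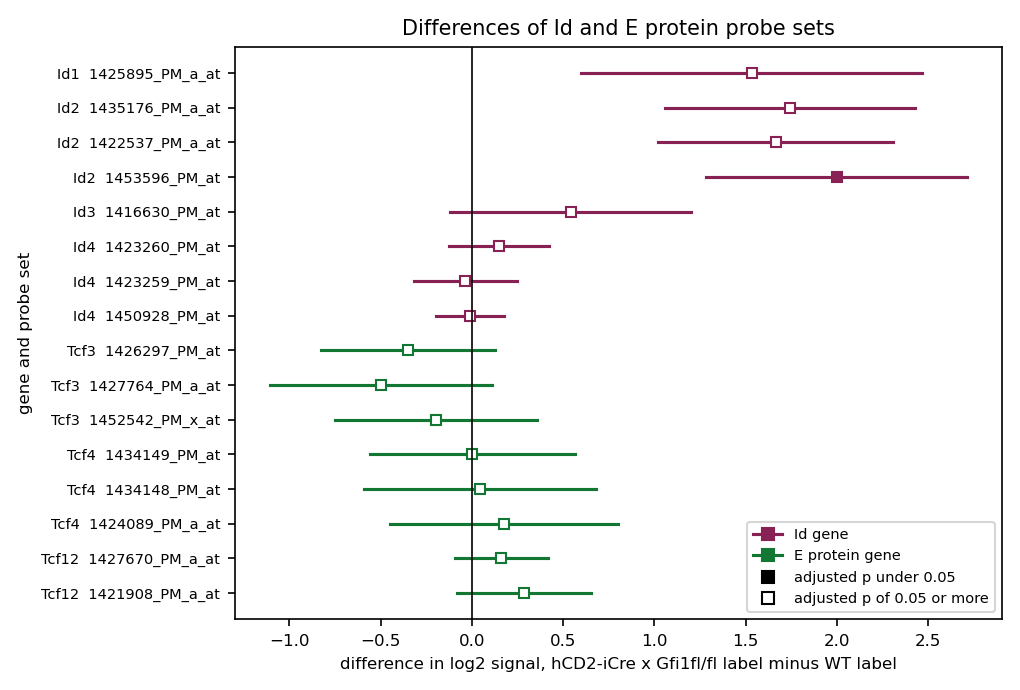
Difference in log2 signal between the hCD2-iCre x Gfi1fl/fl and WT labels (horizontal axis) for each of the 16 probe sets (vertical axis), with 95% confidence intervals from the limma fit of all 45037 probe sets and a filled square where the adjusted p was under 0.05. The 4 intervals of Id1 and Id2 lie above 0, and those of the other 12 probe sets include 0.

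Leaving out each array in turn moved the values within the ranges shown in the plot of those fits. The 3 Id2 probe sets stayed between 1.41 and 2.38, Id1 between 0.91 and 2.16, and Id3 between 0.13 and 0.96. Those of Tcf3 stayed below 0, between -0.71 and -0.04, and those of Tcf12 above 0, between 0.14 and 0.39. The Tcf4 and 2 of the Id4 probe sets changed sign.

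**Figure D3:**
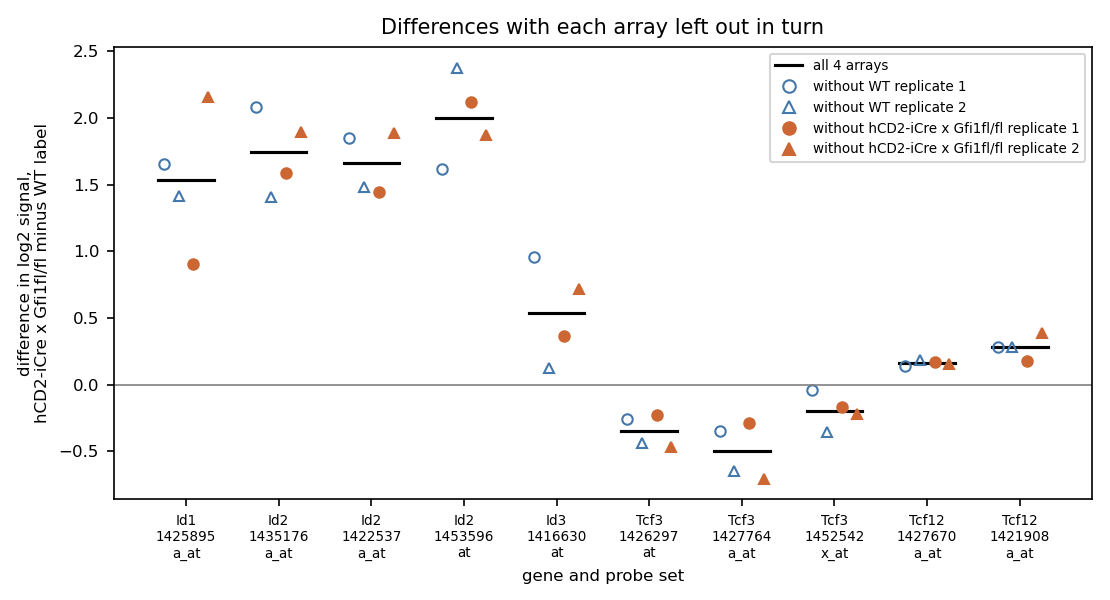
Difference in log2 signal (vertical axis) for the probe sets of Id1, Id2, Id3, Tcf3 and Tcf12 (horizontal axis) with all 4 arrays (black bar) and without each array in turn (open symbols for WT arrays left out, filled for hCD2-iCre x Gfi1fl/fl arrays, circles for replicate 1 and triangles for replicate 2). The Id1 values spread from 0.91 to 2.16 with the hCD2-iCre x Gfi1fl/fl array left out, and the Tcf12 values stay between 0.14 and 0.39.

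The 3 genes whose signals ran most like those of Id2 over the 4 arrays were Inafm2, Ehd3 and Ccr10, by the distance between array values after centring each gene on its mean (0.144, 0.233 and 0.243 log2 units, against a difference between labels of 1.74 for Id2). Inafm2 gave 7.01 and 6.20 on the WT arrays and 8.39 and 8.23 on the others (limma, adjusted p = 0.0625). Ehd3, an endocytic recycling gene, gave 7.94 and 7.57 against 9.75 and 9.35 (adjusted p = 0.0176). Ccr10, a chemokine receptor gene, gave 4.13 and 3.60 against 5.79 and 5.21 (adjusted p = 0.0625). They were chosen on these same values, so their likeness to Id2 is a description.

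Genes that work with the Id and E proteins were counted in 3 lists. Over all genes limma called 1.11%, and 8.29% had an unadjusted p under 0.05. Among 20 measured partners and co-regulators, which include the TAL and LYL bHLH factors, LMO bridging proteins, acetyltransferases, ETO corepressors and enzymes of Id or E protein turnover, 0 were called by limma and 2 had an unadjusted p under 0.05. The median difference was -0.0045, and 10 of the 20 had group means under the medians of all arrays for both labels. The largest differences were 0.43 ± 0.11 (SE) for Lmo2, a LIM-only protein of progenitors (3.06 and 3.10 against 3.48 and 3.53; adjusted p = 0.203), and -0.25 ± 0.20 (SE) for Cbfa2t2, an ETO-family corepressor (adjusted p = 0.934).

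Of 12 measured genes that depend on E proteins in thymocytes, 1 rose, 1 fell and 10 did not pass, with a median of 0.01. An unadjusted p under 0.05 (limma) was found for 3 of the 12, against 8.29% of all genes. The arrays of the labels did not overlap for 7 of the 12, against 34.5% of all genes. The 1 that rose was Gfi1, described above. Gfi1 is the gene that the labels name, and it is also counted in the 3 and in the 7. Its part in these counts therefore cannot speak to the other E protein-dependent genes. The others in the 3 were Dntt and Notch3. Dntt, the terminal deoxynucleotidyl transferase gene, fell by 0.69 ± 0.11 (SE), from 12.23 and 12.39 on the WT arrays to 11.65 and 11.60 (limma, adjusted p = 0.0413). Its call was lost without WT replicate 1 (adjusted p = 0.123) or WT replicate 2 (0.266), without the intensity trend (0.149) and in the fit of probe set means (0.0815). Other members were named after their values were seen. Notch3, a Notch receptor gene, had the largest difference among those not called, 0.84 ± 0.34 (SE; adjusted p = 0.552), with 6.99 and 6.54 on the WT arrays and 7.18 and 8.04 on the others. The recombinase genes Rag1 and Rag2 differed by -0.05 and 0.08, and Ptcra, the pre-T cell receptor alpha gene, by -0.45 ± 0.33 (SE; adjusted p = 0.895).

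Of 14 measured genes that feed into Id gene expression, from the BMP receptor and SMAD pathway and from EGR and NFAT factors, 1 rose and 13 did not pass, with a median of 0.07. Acvr1, a type I receptor gene of the BMP pathway, rose from 2.92 and 2.998 to 4.47 and 4.28, a difference of 1.41 ± 0.15 (SE; limma, adjusted p = 0.00735). Only 1 of its 3 probe sets showed this: the other two differed by 0.21 and -0.14 in the fit of all probe sets, and the mean of the 3 gave 0.50 (adjusted p = 0.159). The call was also lost without WT replicate 1 (adjusted p = 0.0643). The next in size, named after their values were seen, were the BMP receptor gene Bmpr2 and the BMP signal transducers Smad5 and Smad1. Bmpr2 differed by 1.06 ± 0.29, Smad5 by 0.76 ± 0.23 and Smad1 by 0.71 ± 0.19 (SE), none of them called (limma, adjusted p = 0.247, 0.320 and 0.217). Both Smad1 and all 3 Smad5 probe sets had higher signals on both hCD2-iCre x Gfi1fl/fl arrays, and 1 of the 2 Bmpr2 probe sets did. The arrays of the labels did not overlap, in either direction, for 34.7% of all probe sets. These genes were picked by their size, and probe sets of 1 gene are not replicates. Other members of the same pathway did not pass either: Bmpr1a by 0.0042, Bmpr1b by -0.15, Smad6 by 0.0017, Smad7 by -0.08 and Smad4 by 0.35 (limma, adjusted p of at least 0.659). Of these, Bmpr1a, Bmpr1b, Smad6 and Smad7 were dim, between 2.68 and 3.15 on every array. At such signals a lower level was not detectable, and their small differences are no reading of the pathway. The EGR genes, which act in T cell receptor induction of Id3, differed by 0.07 (Egr1), 0.06 (Egr2) and -0.22 (Egr3), with adjusted p of at least 0.926.

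**Figure D4:**
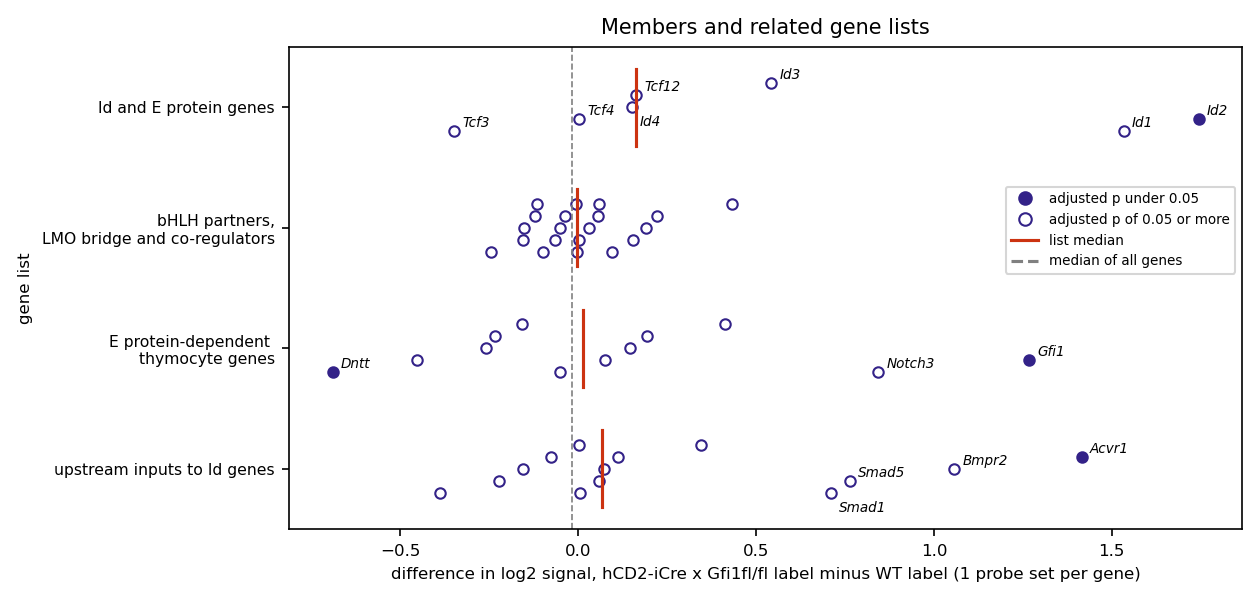
Difference in log2 signal between the hCD2-iCre x Gfi1fl/fl and WT labels (horizontal axis), with 1 point per gene, for the 7 Id and E protein genes and the 3 related lists (vertical axis), filled where the adjusted p was under 0.05, with list medians in red and the median of all genes dashed. Id2, Gfi1, Acvr1 and Dntt are the filled points, and each list's median lies within 0.1 of 0 apart from that of the 7 genes at 0.16.

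Markers of other cells were read beside the Id2 and Id1 values, since several of these cells express Id genes. Of 11 measured gamma-delta T, NK and innate lymphoid markers 0 were called by limma. An unadjusted p under 0.05 was found for 5 of the 11, against 8.29% of all genes. The mean signal of the 11 was 3.64 and 3.61 on the WT arrays and 3.91 and 3.96 on the others. Differences lay above 0 for 8 of the 11. The arrays of the labels did not overlap for 7, against 34.5% of all genes. All 5 were higher on the arrays labelled hCD2-iCre x Gfi1fl/fl. Nkg7 gave 2.95 and 2.77 against 3.43 and 4.28, and Blk 3.67 and 3.62 against 5.38 and 4.39. Il2rb gave 3.19 and 3.14 against 3.45 and 3.96, and Rora 3.83 and 3.71 against 4.13 and 4.34. The NK gene Klrd1 gave 2.94 and 2.92 against 3.16 and 3.18, while the NK genes Ncr1 and Tbx21 stayed between 2.80 and 3.05. Il17re, the brightest of the 11, had a lower mean on the hCD2-iCre x Gfi1fl/fl arrays, with 7.73 and 7.66 against 7.68 and 7.16. For 5 of the 11, group means lay under the medians of all arrays for both labels. On the linear scale the mean of the 11 was 28.2 and 27.0 against 30.9 and 25.2. Of 10 measured thymic epithelial and stromal markers 0 were called by limma. An unadjusted p under 0.05 was found for 3 of the 10, against 8.29% of all genes. The mean of the 10 was 4.33 and 4.05 on the WT arrays against 4.62 and 4.41. Epcam gave 6.89 and 6.06 against 8.63 and 7.69, and Cldn4 gave 7.91 and 7.12 against 9.05 and 8.50. Krt8, an epithelial keratin gene near the lower quartiles, gave 3.22 and 3.21 against 2.84 and 2.98. Foxn1, Psmb11 and Krt5, which define thymic epithelium, stayed between 2.71 and 3.27. For 13 dendritic and myeloid markers, with means of 4.07 and 3.94 against 3.99 and 4.25, and 7 B cell markers, with 3.91 and 3.74 against 3.77 and 3.58, limma called 0, with 1 and 1 at an unadjusted p under 0.05. These were Irf8, with 4.01 and 3.91 against 4.63 and 4.78, and Cd79b, with 8.26 and 7.88 against 7.41 and 6.28. The part of these cells in the Id gene signals was not tested.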

How the data were processed

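The deposited values were read as RMA output on the log2 scale, because the submitters' processing notes name RMA and Affymetrix Expression Console 1.1 and the quartiles of the 4 arrays were nearly equal. They were used without further normalization, and no detection calls were used. Of 45037 probe sets, 28898 had 1 gene symbol in the platform annotation, 551 had several and 15588 were not listed there. They named 17097 genes, and the probe set with the highest mean over the 4 arrays stood for its gene. The Entrez IDs of the 7 genes and of Gfi1 matched RefSeq.

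The comparison of labels used limma 3.58.1 (lmFit, eBayes) under R 4.3.3 (intensity trend, no covariate, two-sided, Benjamini-Hochberg), once over all genes and once over all probe sets. This gave 2 residual degrees of freedom, to which the prior added 5.00. The procedure was run on data simulated from its own fitted variances with independent noise. Such data hold no shift shared by many genes of an array, like that of the cell cycle genes. The run therefore cannot address such shifts. Group values are in the order replicate 1, replicate 2. Genes outside the 7 were named as the called members of each list (up to 4), or the 2 largest differences where none was called, and as the 3 genes nearest to each called member. Other list members and cell type markers were named after their values were seen, to show what a list held. The members and lists were chosen with earlier results of these data known. Alternatives were filters on the dimmest 30% and 50%, a replicate block, a cell cycle covariate, no trend, a robust prior, quantile normalization repeated, median centring, other uses of probe sets, and leaving out each array. Listed genes without a single-symbol probe set are not analysed here. Figures were drawn with matplotlib 3.10.9.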

Additional observations from a re-analysis of the deposited data

How the results depend on the processing

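With 2 arrays per label, 1 array could decide a call. The number of the 7 genes called was 1, and it became 0 without the intensity trend (Id2, adjusted p = 0.106, limma), 2 with the cell cycle covariate, and 0 to 2 with an array left out. Of the 16 probe sets 1 was called. This became 2 with the replicate block, 3 with a second quantile normalization, with either filter on dim probe sets, with the robust prior or with only single-symbol probe sets, 4 with the cell cycle covariate, 0 without the trend, and 0 to 3 with an array left out. The log2 difference of Gfi1 lay between 1.19 and 1.345 with an array left out. For the E protein-dependent list, 2 genes were called, against 1 without the trend or with the mean of all probe sets, and 0 to 3 with an array left out. For the inputs to Id genes, 1 was called, against 0 without the dimmest 50% or with the mean of all probe sets, 2 with the covariate, and 0 to 2 with an array left out.

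Signs changed only for the Tcf4 probe sets and the dimmer Id4 ones, whose differences with all arrays lay between -0.04 and 0.17. The brightest Tcf4 probe set differed by -0.0047 after median centring, alone and as the gene's value, and by -0.12 to 0.13 with an array left out. The other Tcf4 probe sets gave -0.16 to 0.25 and -0.038 to 0.39, and the dim Id4 ones -0.17 to 0.096 and -0.076 to 0.055. Of 90 recomputed gene differences of the 7 genes 83 kept direction and side of the threshold, and of 203 probe set differences 173 did.

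Over all genes 190 were called, against 497 with the covariate and 103 to 475 with an array left out. Over all probe sets 345 were called, against 205 without the trend, 695 with the covariate and 168 to 368 with an array left out. The replicate numbers are shared by the labels without a stated link. Deviations of same-numbered arrays from their group means correlated at 0.301 over genes, and with the replicate block the brightest Id2 probe set was called among probe sets (1.74, adjusted p = 0.0493, limma), while 1 of the 7 genes was called as before. The cause of these changes was not tested. Dim signals limit Id4.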
